A study of Mus musculus with 17 samples.

Results

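Mouse embryonic stem cells held for 35 h in LFAI were compared with cells of the same lines maintained in LIM, by polyadenylated RNA counted per gene. Both are states in which genes of the epiblast are on, and the comparison asked what still separates them. The comparison uses 4 of the 17 libraries of the series, chosen by their labels alone: line R1 and line CGR8 at LFAI 35 h, and line R1 and line CGR8 in LIM. R1 and CGR8 are established mouse embryonic stem cell lines, each present once in each group, so n = 2 per group and the lines are the replicates. LFAI contained FGF2 (12 ng/ml), Activin A (20 ng/ml) and IWP2 (2 µM), a compound that blocks secretion of Wnt ligands. LIM contained the MEK inhibitor PD325901 (0.1 µM) and the same dose of IWP2. LIF, the cytokine that sustains self-renewal through STAT3, was in every medium. Before LFAI, the R1 and CGR8 cells had spent 9 and 7 passages in 2i, the mix of PD325901 with the GSK3 inhibitor CHIR99021 that holds naive cells. The LIM cells had spent 5 passages in 2i in either line and then 4 (R1) and 6 (CGR8) passages in LIM. L2i (CHIR99021 at 3 µM with PD325901 at 0.1 µM) and LFAI for 4 days, with 1 library per line each, entered the same fit and are quoted for their levels. Medium, time since 2i and time in 2i therefore differ together, and their parts in any difference below cannot be told apart.

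FGF ligands signal through receptor tyrosine kinases to MEK and ERK, and ERK induces both ETS transcription factors and a set of inhibitors that feed back on the pathway. Activin A and Nodal signal through a shared set of receptors to SMAD2 and SMAD3, whose targets include the Nodal antagonists Lefty1 and Lefty2. In the mouse embryo FGF and ERK signalling drives naive cells toward the formative and primed epiblast, and MEK inhibition holds that step back.

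The libraries held 15.9 M (R1) and 15.4 M (CGR8) gene counts at LFAI 35 h, against 15.8 M and 16.3 M in LIM. All 8 embryonic stem cell markers were present in all 4 libraries, between 127 and 1809 CPM (counts per 1000000, after TMM scaling), and their summed level was 4606 and 4524 CPM at LFAI 35 h, against 3999 and 4157 CPM in LIM. In values given as a pair, R1 comes first and CGR8 second. Markers of other cells were low. The 10 fibroblast markers summed to 12.4 and 12.5 CPM at LFAI 35 h, against 22.3 and 34.4 CPM in LIM, with 5 below 1 CPM in every library and 1 at 0. The 6 primitive endoderm markers summed to 2.67 and 4.22 CPM at LFAI 35 h, against 17.3 and 13.0 CPM in LIM, and the 5 trophoblast markers to 4.44 and 3.96 CPM, against 18.1 and 10.8 CPM. The 5 streak markers summed to 6.26 and 4.61 CPM at LFAI 35 h, against 16.7 and 12.4 CPM in LIM. These 4 sums of markers of other cells were higher in LIM in both lines, and their part in the results was not tested. In bulk libraries, fewer cells of a type and less RNA per cell cannot be told apart. A separate time course of R1 cells (1 library per day, n = 1) gave values from other cultures. One of its libraries went against its label: the library labelled LFAI day 1 differed at least 2-fold from LIM day 1 in 11 of 10578 genes, but from LFAI day 2 in 1202. No value of that library is used below.

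The difference between both states was larger on the LIM side. Of 15525 genes tested by the edgeR quasi-likelihood test with the line as a block (two-sided, Benjamini-Hochberg adjusted over all of them), 1489 (9.59%) were called at an adjusted p under 0.05. At LFAI 35 h 494 genes were higher (3.18%) and 995 were lower (6.41%). The lower genes also moved further, with a median log2 fold of -1.98 and 836 of them (84.0%) at least 2-fold lower, while the higher genes had a median of 1.10 and 279 (56.5%) at least 2-fold higher. In all called genes R1 and CGR8 differed with the same sign. The median log2 fold over all tested genes was -0.01. The libraries of both groups did not overlap in 8207 genes (52.9%), so most of the genes without overlap were not called. The calls rest on all 4 libraries. The higher calls numbered 178, 286, 150 and 251, and the lower calls 335, 616, 416 and 477, without R1 at 35 h, CGR8 at 35 h, R1 in LIM and CGR8 in LIM in turn, where the lone library left in a group is assumed to vary like the others. Without the line as a block 298 genes were higher and 692 lower.

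**Figure D1:**
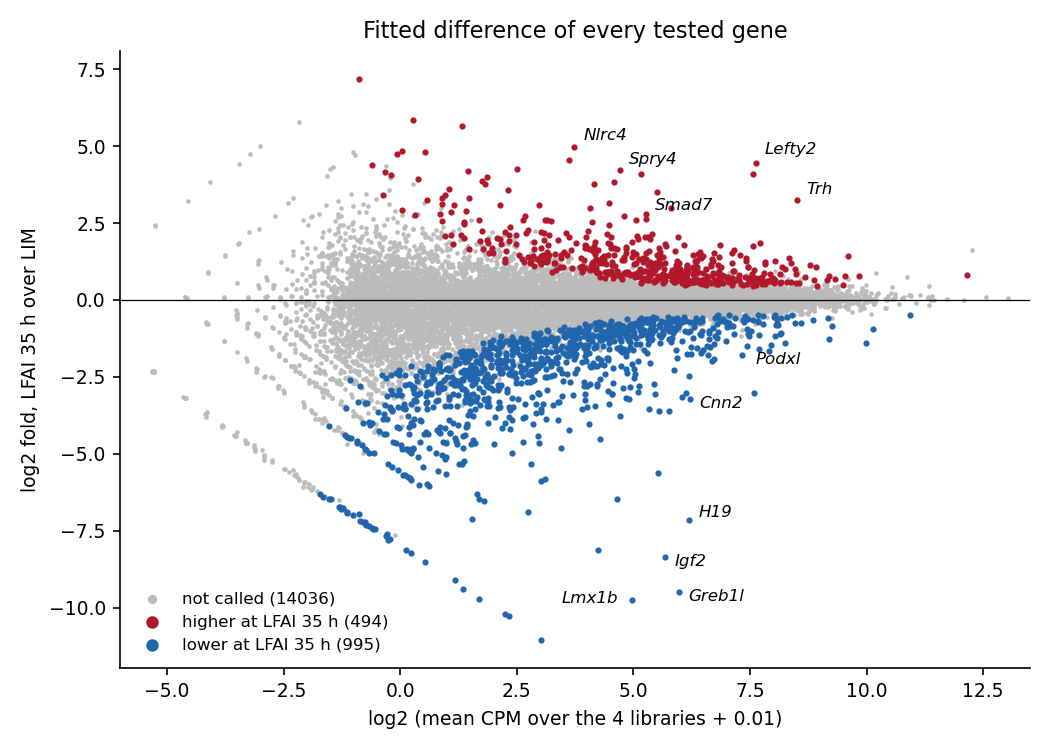
Fitted log2 fold (LFAI 35 h over LIM, vertical axis) of each tested gene against the log2 of its mean CPM over the 4 libraries plus 0.01 (horizontal axis). The 494 higher genes are red, the 995 lower genes blue and the rest grey, and the blue points reach further from 0 than the red.

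Several genes that ERK signalling induces were higher at LFAI 35 h. Of 28 tested members, 10 were higher and 1 was lower, against 3.18% and 6.41% of all tested genes, with a median log2 fold of 0.45. Spry4, a feedback inhibitor of receptor tyrosine kinase signalling, had 37.4 and 61.9 CPM at LFAI 35 h, against 2.75 and 2.62 CPM in LIM. The lower 35 h library stood more than 10-fold above the higher LIM library, and the fold was 18.8 (log2 fold 4.23 ± 0.41, adjusted p = 0.000579). Dusp6, a phosphatase that inactivates ERK, had 51.7 and 58.1 CPM at LFAI 35 h, against 13.4 and 14.5 CPM in LIM (3.93-fold higher, log2 fold 1.98 ± 0.21, adjusted p = 0.000877). Il17rd, a membrane antagonist of FGF signalling, had 98.9 and 112 CPM at LFAI 35 h, against 30.7 and 30.1 CPM in LIM, so both lines were again high together (log2 fold 1.79 ± 0.21, adjusted p = 0.00152). Of the ETS factors, Etv4 had 41.0 and 49.2 CPM at LFAI 35 h, against 1.38 and 4.99 CPM in LIM (14.3-fold higher, adjusted p = 0.0011). Etv1 had 26.6 and 30.3 CPM at LFAI 35 h, against 6.82 and 8.50 CPM in LIM (3.71-fold higher, adjusted p = 0.00206), while the third factor of that family, Etv5, was high everywhere with 768 and 780.2 CPM at LFAI 35 h, against 489.6 and 653 CPM in LIM, and was not called (adjusted p = 0.131). Jun, a subunit of AP-1, went the other way and had 2.87 and 4.48 CPM at LFAI 35 h, against 22.2 and 13.3 CPM in LIM (log2 fold -2.25 ± 0.31, adjusted p = 0.00327). These 6 called genes kept their calls without any 1 of the 8 libraries.

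Smaller differences completed the ERK list. The receptor tyrosine kinase Epha2 had 233 and 260.1 CPM at LFAI 35 h, against 88.6 and 104 CPM in LIM (2.56-fold higher, adjusted p = 0.00712), and its call was lost without the R1 LIM library (log2 1.11). The ERK pathway inhibitors Spred1 and Spred3 were 2.54-fold higher and 2.53-fold higher (adjusted p = 0.0193 and 0.0299). The call of Spred1 was lost without the R1 LFAI 35 h or the CGR8 LIM library (log2 1.38, 0.88), and that of Spred3 without the R1 LFAI 35 h or the R1 LIM library (log2 1.09, 0.85) or without the line as a block (log2 1.26, adjusted p = 0.0955). Spry2 had 81.6 and 83.5 CPM at LFAI 35 h, against 52.7 and 44.0 CPM in LIM, and the immediate early gene Ier2 had 155 and 110.5 CPM at LFAI 35 h, against 104 and 79.4 CPM in LIM. These 2 stood just inside the threshold (adjusted p = 0.049 and 0.0426). Spry2 was lost without any of the 4 libraries (log2 0.62 to 0.95), Ier2 without any of the 4 libraries (log2 0.47 to 0.58), and both without the block (log2 0.77, adjusted p = 0.064 for Spry2, log2 0.53, adjusted p = 0.286 for Ier2). Other early response genes were low in both groups, with Fos at 0.718 and 1.04 CPM at LFAI 35 h, against 3.38 and 2.32 CPM in LIM (adjusted p = 0.108) and Egr1 at 2.35 and 2.53 CPM at LFAI 35 h, against 1.44 and 0.892 CPM in LIM (adjusted p = 0.14). The count of higher members was 6, 8, 6 and 7 without R1 at 35 h, CGR8 at 35 h, R1 in LIM and CGR8 in LIM.

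Motif letters were searched for on both strands around the start of ERK genes annotated in the RefSeq promoter table (GRCm38.p6). The window ran from 250 bases before to 50 bases after the start. The letters were CCGGAAG for ETS factors, TGANTCA for AP-1, AATCCAC for FOXH1, CACGTG for the E-box and the consensus of the CArG box. None of these 5 motifs occurred in the promoters of the 8 called ERK members or the 2 called Nodal members in the table. Shorter or looser forms of these sites were not searched. Among all 32851 promoters the shares with a match were 8.86%, 7.81%, 2.49%, 7.15% and 1.63% in that order. The windows of Dusp6 and Il17rd are shown because these called ERK genes had the smallest p among those in the table. They lie at chr10:99262981-99263280 (plus strand) and chr14:27038751-27039050 (plus strand), with capitals for the 50 bases from the start on. G and C made up 57.3% and 58.3% of these windows, against a median of 52.7% over all promoters.
Dusp6: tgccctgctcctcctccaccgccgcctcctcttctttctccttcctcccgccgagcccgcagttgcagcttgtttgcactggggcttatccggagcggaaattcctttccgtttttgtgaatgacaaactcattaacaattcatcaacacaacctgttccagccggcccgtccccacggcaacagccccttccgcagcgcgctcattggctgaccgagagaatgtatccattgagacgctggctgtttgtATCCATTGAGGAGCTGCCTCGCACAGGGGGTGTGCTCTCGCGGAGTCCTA
Il17rd: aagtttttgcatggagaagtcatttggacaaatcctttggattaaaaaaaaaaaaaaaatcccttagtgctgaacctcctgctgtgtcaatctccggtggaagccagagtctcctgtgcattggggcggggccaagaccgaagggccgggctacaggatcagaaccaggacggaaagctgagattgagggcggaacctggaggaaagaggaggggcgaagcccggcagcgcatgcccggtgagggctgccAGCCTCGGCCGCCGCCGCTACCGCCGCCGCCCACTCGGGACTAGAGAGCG

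Targets of Nodal and Activin included some of the largest rises. Of 13 tested members 7 were higher and none was lower, against 3.18% and 6.41% of all genes, and the median log2 fold was 0.67. Lefty2, a secreted antagonist of Nodal, had 306 and 448 CPM at LFAI 35 h, against 8.14 and 26.0 CPM in LIM (log2 fold 4.45 ± 0.77, adjusted p = 0.00827). Its neighbour and paralog Lefty1 had 352 and 361 CPM at LFAI 35 h, against 13.8 and 27.9 CPM in LIM (log2 fold 4.09 ± 0.72, adjusted p = 0.0093). Both were more than 10-fold apart between the groups, yet the LIM libraries differed 2-fold or more from each other, and the calls were lost without the R1 LIM library (log2 3.52) for Lefty1 and without the R1 LIM library (log2 3.65) for Lefty2. These genes lie 35.9 kb apart on chromosome 1 (chr1:180935022-180938400 and chr1:180893108-180899103, GRCm38), and as paralogs they may share reads, so their split is uncertain. Smad7, the inhibitory SMAD, had 58.2 and 73.7 CPM at LFAI 35 h, against 7.14 and 14.4 CPM in LIM (6.22-fold higher, adjusted p = 0.000484). Pmepa1, an inhibitor of SMAD signalling, had 22.4 and 30.1 CPM at LFAI 35 h, against 7.70 and 9.63 CPM in LIM (3.02-fold higher, adjusted p = 0.00316). Smad7 and Pmepa1 kept their calls without any 1 library, but Pmepa1 went the other way in the R1 time course given below.

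The Nodal co-receptor Tdgf1 had 428 and 492 CPM at LFAI 35 h, against 127 and 291 CPM in LIM (2.31-fold higher, adjusted p = 0.0155), and the SMAD corepressor Ski had 209 and 231 CPM at LFAI 35 h, against 156 and 123 CPM in LIM (1.59-fold higher, adjusted p = 0.0209). The call of Tdgf1 was lost without the R1 LFAI 35 h or the R1 LIM library (log2 1.07, 0.75) or without the block (log2 1.14, adjusted p = 0.0697), and that of Ski without the CGR8 LFAI 35 h or the CGR8 LIM library (log2 0.51, 0.50). Nodal itself had 68.0 and 82.3 CPM at LFAI 35 h, against 59.2 and 62.3 CPM in LIM and was not called (adjusted p = 0.424). Without R1 in LIM the number of higher Nodal targets was 4. At LFAI 4 days Lefty2 had 43.5 and 39.9 CPM.

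**Figure D2:**
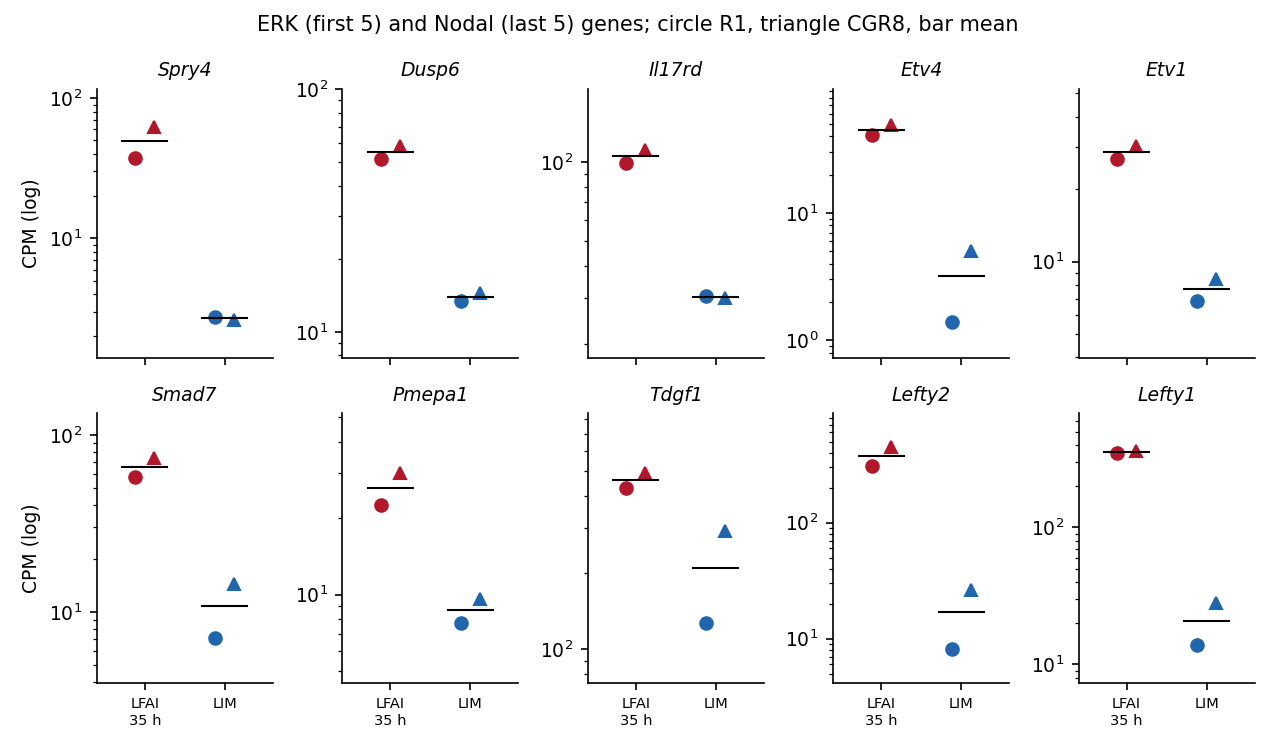
CPM on a log axis of 5 ERK genes (upper row) and 5 Nodal genes (lower row) in the 4 libraries, with LFAI 35 h on the left and LIM on the right of each panel. Circles are R1, triangles CGR8 and bars the mean, and in every panel both LFAI 35 h libraries lie above both LIM libraries.

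The FGF ligands and receptors moved in part the opposite way. Of 16 tested members 1 was higher and 5 were lower at LFAI 35 h, against 3.18% and 6.41% of all tested genes, with a median log2 fold of -0.65. Fgfr2 had 16.4 and 10.3 CPM at LFAI 35 h, against 139 and 96.7 CPM in LIM (8.86-fold lower, log2 fold -3.15 ± 0.21, adjusted p = 8.94e-05). Its L2i level was 16.5 and 17.5 CPM, near that of the 35 h cells. Fgfr3 had 0.522 and 0.13 CPM at LFAI 35 h, against 6.51 and 3.63 CPM in LIM (16.3-fold lower, adjusted p = 0.00394), and the heparan sulfate proteoglycan Gpc3 had 45.8 and 54.3 CPM at LFAI 35 h, against 146 and 135 CPM in LIM (2.85-fold lower, adjusted p = 0.00263). Fgfr1, another receptor of the family, had 175 and 134 CPM at LFAI 35 h, against 289 and 214 CPM in LIM (1.62-fold lower, adjusted p = 0.0301), and its call was lost without any of the 4 libraries (log2 -0.74 to -0.65) or without the block (log2 -0.70, adjusted p = 0.166). The membrane protein Flrt3, which binds FGF receptors, was 5.09-fold lower (adjusted p = 0.0404) and was lost without any of the 4 libraries (log2 -2.87 to -1.67) or without the block (log2 -2.40, adjusted p = 0.0572). Fgf4, the main FGF ligand of embryonic stem cells, had 342 and 386 CPM at LFAI 35 h, against 165 and 243 CPM in LIM (1.79-fold higher, adjusted p = 0.033), and that call was lost without the R1 LFAI 35 h or the CGR8 LFAI 35 h or the R1 LIM library (log2 0.93, 0.75, 0.53). The number of lower members was 3 without R1 in LIM, without CGR8 in LIM or without the block.

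Pluripotency genes differed in some members. Among 18 naive factors 1 was higher and 2 were lower at LFAI 35 h, with a median log2 fold of 0.02. Among 23 genes of the formative and early epiblast 2 were higher and 1 was lower, with a median of 0.13. Over all tested genes 3.18% were higher and 6.41% lower. Nanog had 179.7 and 325 CPM at LFAI 35 h, against 253 and 361 CPM in LIM (adjusted p = 0.453), Esrrb 340.4 and 555 CPM at LFAI 35 h, against 312 and 417 CPM in LIM (adjusted p = 0.569) and Zfp42 637 and 684 CPM at LFAI 35 h, against 725 and 691 CPM in LIM (adjusted p = 0.735). The groups overlapped for Nanog and Esrrb, and for Zfp42 both 35 h libraries lay just below both LIM libraries. The epiblast factor Otx2 had 249.8 and 158 CPM at LFAI 35 h, against 156 and 271 CPM in LIM (adjusted p = 0.925), and the de novo DNA methyltransferase Dnmt3b had 1373 and 729.9 CPM at LFAI 35 h, against 809 and 961 CPM in LIM (adjusted p = 0.641). Fgf5 had 14.5 and 4.61 CPM at LFAI 35 h, against 10.8 and 16.4 CPM in LIM (adjusted p = 0.42) and Pou3f1 62.5 and 21.8 CPM at LFAI 35 h, against 31.3 and 50.6 CPM in LIM (adjusted p = 0.917). The order of the groups was opposite in the 2 lines for these 4 genes. With 2 lines a p above the threshold does not show that the levels were alike.

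The lines disagreed in a regular way. In 22 of the 23 formative genes (95.7%) the difference between LFAI 35 h and LIM was larger in R1 than in CGR8, against 50.4% of all tested genes, and the median log2 difference of the list was 0.65 in R1 and -0.14 in CGR8. Among the 18 naive factors the order was the reverse in 14, with medians of -0.18 in R1 and 0.28 in CGR8. For Pou3f1 the log2 difference was 0.99 in R1 and -1.21 in CGR8. For the naive factor Tbx3, which had 13.6 and 82.7 CPM at LFAI 35 h, against 28.6 and 54.5 CPM in LIM, it was -1.07 in R1 and 0.60 in CGR8. With 1 library per line and medium, a difference between lines cannot be told apart from one between single cultures. This pattern was not tested, and it was chosen for description after the values were seen.

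**Figure D3:**
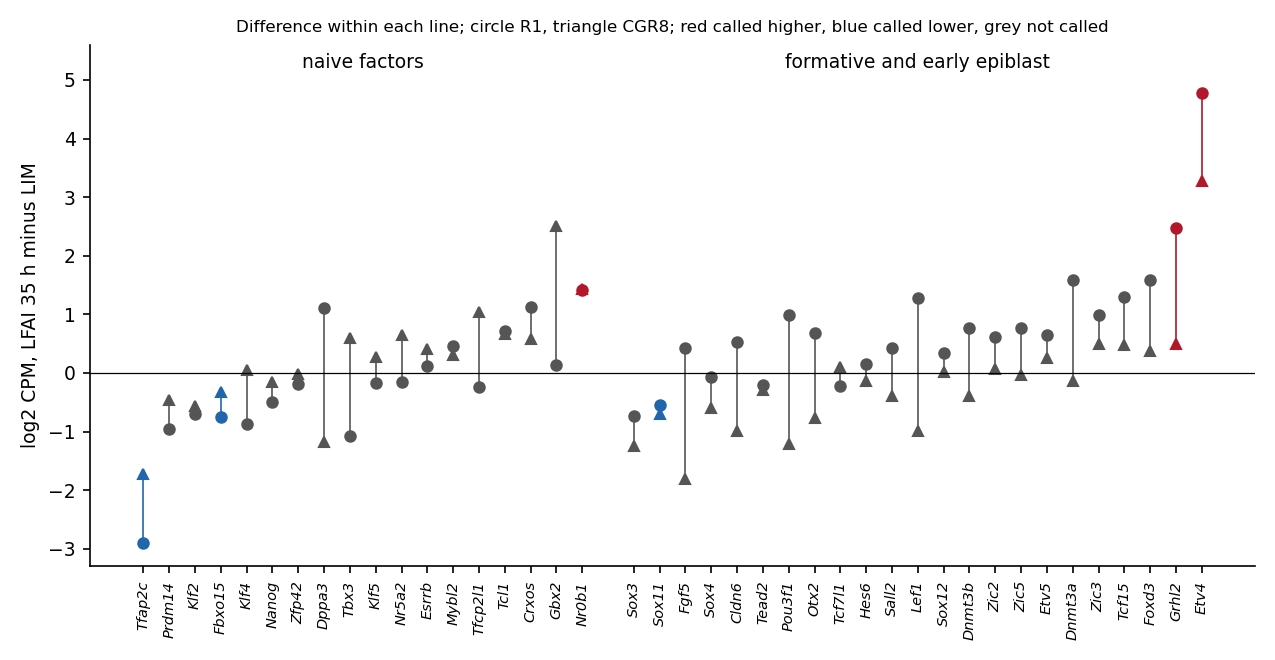
Log2 CPM difference, LFAI 35 h minus LIM, for naive factors (left) and formative and early epiblast genes (right), each gene with a circle for R1 and a triangle for CGR8. Among the formative genes the circle lies above the triangle in 22 of 23, and among the naive factors below it in 14 of 18.

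Nr0b1, a nuclear receptor bound up with the naive network, had 108 and 157 CPM at LFAI 35 h, against 40.3 and 58.3 CPM in LIM (2.68-fold higher, adjusted p = 0.000916). Its level in L2i was 61.9 and 83.7 CPM, between the other groups. Tfap2c, a transcription factor of naive and germ cells, had 6.39 and 13.7 CPM at LFAI 35 h, against 48.5 and 45.6 CPM in LIM (4.77-fold lower, adjusted p = 0.00337), while L2i cells had 97.7 and 99.9 CPM, so the LIM cells were nearer to the naive level. Among 13 core pluripotency genes 3 were higher and 1 was lower (median log2 fold 0.43), against 3.18% and 6.41% of all tested genes. Dppa2 had 98.8 and 92.2 CPM at LFAI 35 h, against 47.6 and 51.5 CPM in LIM (1.93-fold higher, adjusted p = 0.00457) and kept its call without any 1 library. Dppa5a had 1032 and 1195 CPM at LFAI 35 h, against 284 and 579 CPM in LIM (2.67-fold higher, adjusted p = 0.00884), and its call was lost without the R1 LIM library (log2 1.02). Lin28b, which blocks maturation of let-7, was 1.88-fold lower (adjusted p = 0.026) and was lost without the CGR8 LFAI 35 h or the R1 LIM or the CGR8 LIM library (log2 -0.65, -0.79, -1.02) or without the block (log2 -0.90, adjusted p = 0.0605). The epithelial factor Grhl2 had 88.6 and 45.7 CPM at LFAI 35 h, against 15.9 and 32.3 CPM in LIM (2.75-fold higher, adjusted p = 0.0425), and Sox11 and Fbxo15 were 1.53-fold lower and 1.45-fold lower (adjusted p = 0.0406 and 0.04). These 3 calls were not firm. Grhl2 was lost without the R1 L2i or the R1 LFAI 35 h or the R1 LIM library (log2 1.44, 0.83, 0.81) or without the block (log2 1.48, adjusted p = 0.0549), Fbxo15 without any of the 4 libraries compared or an L2i library (log2 -0.70 to -0.37), and Sox11 without any of the 4, an L2i library or CGR8 at 4 days (log2 -0.71 to -0.51) or without the block (log2 -0.61, adjusted p = 0.108). Without R1 in LIM, 1 core gene was higher. Pou5f1, at 1809 and 1609.6 CPM at LFAI 35 h, against 1190.4 and 1339 CPM in LIM, was not called (adjusted p = 0.133).

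Among the largest rises were 2 adhesion genes that sit side by side. Nphs1 and Kirrel2 encode nephrin and a nephrin partner, immunoglobulin family proteins known from the filtration slit of the kidney. Kirrel2 had 21.8 and 25.5 CPM at LFAI 35 h, against 0.751 and 1.25 CPM in LIM (23.4-fold higher, log2 fold 4.55 ± 0.35, adjusted p = 0.000237). Nphs1 had 63.9 and 71.2 CPM at LFAI 35 h, against 2.44 and 5.59 CPM in LIM (17.3-fold higher, log2 fold 4.11 ± 0.28, adjusted p = 9.12e-05). Both were high in both 35 h libraries and lower in L2i, with 8.64 and 6.91 CPM for Kirrel2 and 26.1 and 30.7 CPM for Nphs1. Their order was thus LFAI 35 h, L2i and then LIM. The genes run away from each other on chromosome 7, Kirrel2 at chr7:30447534-30457690 on the minus strand and Nphs1 at chr7:30458315-30487223 on the plus strand (GRCm38), with 624 bases between them. An antisense transcript within Nphs1, Nphs1os, had 6.26 and 6.82 CPM at LFAI 35 h, against 0.188 and 0.773 CPM in LIM (13.5-fold higher, adjusted p = 0.0055). The strand setting of the counting is not given in the sources used here, so reads of Nphs1 and Nphs1os cannot be told apart.

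The start regions of this pair are shown because both genes moved together, a choice made after their values were seen. The RefSeq starts lie 2543 bases apart, since the RefSeq start of Nphs1 is inside the GENCODE gene. The windows are chr7:30457466-30457765 for Kirrel2 (minus strand, read on that strand) and chr7:30459808-30460107 for Nphs1 (plus strand), with capitals for the 50 bases from the start on. Neither held any of the 5 motifs named above. They had 8 and 6 CG dinucleotides, close to the median of 7 over all promoters, against 19 in each of the windows of Dusp6 and Il17rd.
Kirrel2: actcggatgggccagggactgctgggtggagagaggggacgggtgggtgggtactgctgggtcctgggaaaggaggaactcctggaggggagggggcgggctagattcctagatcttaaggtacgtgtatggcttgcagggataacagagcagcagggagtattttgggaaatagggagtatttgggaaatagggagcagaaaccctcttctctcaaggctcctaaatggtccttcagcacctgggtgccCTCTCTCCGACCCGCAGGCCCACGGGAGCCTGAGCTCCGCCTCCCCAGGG
Nphs1: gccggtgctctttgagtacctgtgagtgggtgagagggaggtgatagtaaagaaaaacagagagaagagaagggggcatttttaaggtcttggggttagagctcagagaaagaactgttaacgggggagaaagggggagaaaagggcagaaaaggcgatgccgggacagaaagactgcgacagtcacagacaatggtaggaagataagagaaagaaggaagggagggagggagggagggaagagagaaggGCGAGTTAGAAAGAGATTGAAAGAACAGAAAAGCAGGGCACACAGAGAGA

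The other large rises were genes of varied function. The largest fold among named genes of at least 5 CPM was that of Nlrc4, a sensor adaptor of the inflammasome, with 22.8 and 28.6 CPM at LFAI 35 h, against 0.689 and 0.951 CPM in LIM (31.1-fold higher, log2 fold 4.96 ± 0.46, adjusted p = 0.000484). It was near its LIM level in L2i (0.873 and 0.598 CPM) and at LFAI 4 days (0.629 and 0.196 CPM), so the 35 h libraries stood alone. Trh, the precursor of thyrotropin-releasing hormone, had 516 and 794 CPM at LFAI 35 h, against 58.2 and 78.1 CPM in LIM (9.48-fold higher, log2 fold 3.24 ± 0.20, adjusted p = 7.78e-05). In L2i it had 79.2 and 100.5 CPM, much as in LIM. The calcium-binding protein gene Casq2 had 5.61 and 16.0 CPM at LFAI 35 h, against 0.626 and 0.357 CPM in LIM (19.3-fold higher, adjusted p = 0.00338). Irgm1, an interferon-inducible GTPase, had 80.8 and 86.4 CPM at LFAI 35 h, against 8.01 and 6.90 CPM in LIM (11.3-fold higher, adjusted p = 0.000468). Zbp1, a sensor of Z-form nucleic acid, had 28.3 and 37.9 CPM at LFAI 35 h, against 2.82 and 1.84 CPM in LIM (13.6-fold higher, adjusted p = 0.00156). The helicase gene Ddx60 had 10.7 and 7.60 CPM at LFAI 35 h, against 0.25 and 1.31 CPM in LIM, and its call (adjusted p = 0.00969) was lost without the R1 LFAI 35 h library (log2 3.12). Teddm3 and Ucma were 9.86-fold higher and 18.4-fold higher at no more than 6 CPM. Teddm3 was lost without any of the 4 libraries (log2 2.95 to 3.70), and Ucma without the CGR8 LFAI 35 h or the R1 LIM or the CGR8 LIM library (log2 2.99, 4.78, 3.83) or without the block (log2 3.89, adjusted p = 0.0766).

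Several regulators of anterior and neural development were among the largest falls, and some were near 0 at LFAI 35 h. Lmx1b, a LIM-homeodomain factor, had 0.13 and 0 CPM at LFAI 35 h, against 79.2 and 45.8 CPM in LIM (log2 fold -9.75 ± 0.43, adjusted p = 3.01e-05). That is 2 counts in R1 and none in CGR8 at 35 h, so the ratio of LIM to LFAI 35 h was 954 (counting interval 264 to 7882). Hesx1, a homeobox gene of forebrain and pituitary, had 0.13 and 0.13 CPM at LFAI 35 h, against 40.8 and 34.0 CPM in LIM (280.2-fold lower, adjusted p = 8.94e-05). Six3, a homeobox gene of forebrain and eye, had no count at 35 h and 6.89 and 6.00 CPM in LIM, which is at least 65.9-fold lower over a floor of 3 counts (adjusted p = 0.00238). Its antisense transcript Six3os1 was at least 51.5-fold lower (adjusted p = 0.00734), which no longer passed without the R1 LIM library (log2 -8.98) or in the DESeq2 test (adjusted p = 0.27), and the overlapping pair cannot be told apart by strand. Pax6 had 5.68 and 3.96 CPM at LFAI 35 h, against 57.7 and 25.9 CPM in LIM (8.24-fold lower, adjusted p = 0.000572), and the forkhead gene Foxd4 had 0.13 and 0 CPM at LFAI 35 h, against 5.88 and 7.85 CPM in LIM (a ratio of LIM to 35 h of 106 (counting interval 29.0 to 879.6), adjusted p = 0.00264). Nes, which encodes the intermediate filament of neural progenitors, had 41.6 and 35.9 CPM at LFAI 35 h, against 127 and 96.5 CPM in LIM (2.86-fold lower, adjusted p = 0.000589). At LFAI 4 days Nes had 578 and 366 CPM, above its level in LIM. Of 10 tested genes of the neural list 5 were lower and none was higher (median log2 fold -2.21), against 6.41% and 3.18% of all tested genes.

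**Figure D4:**
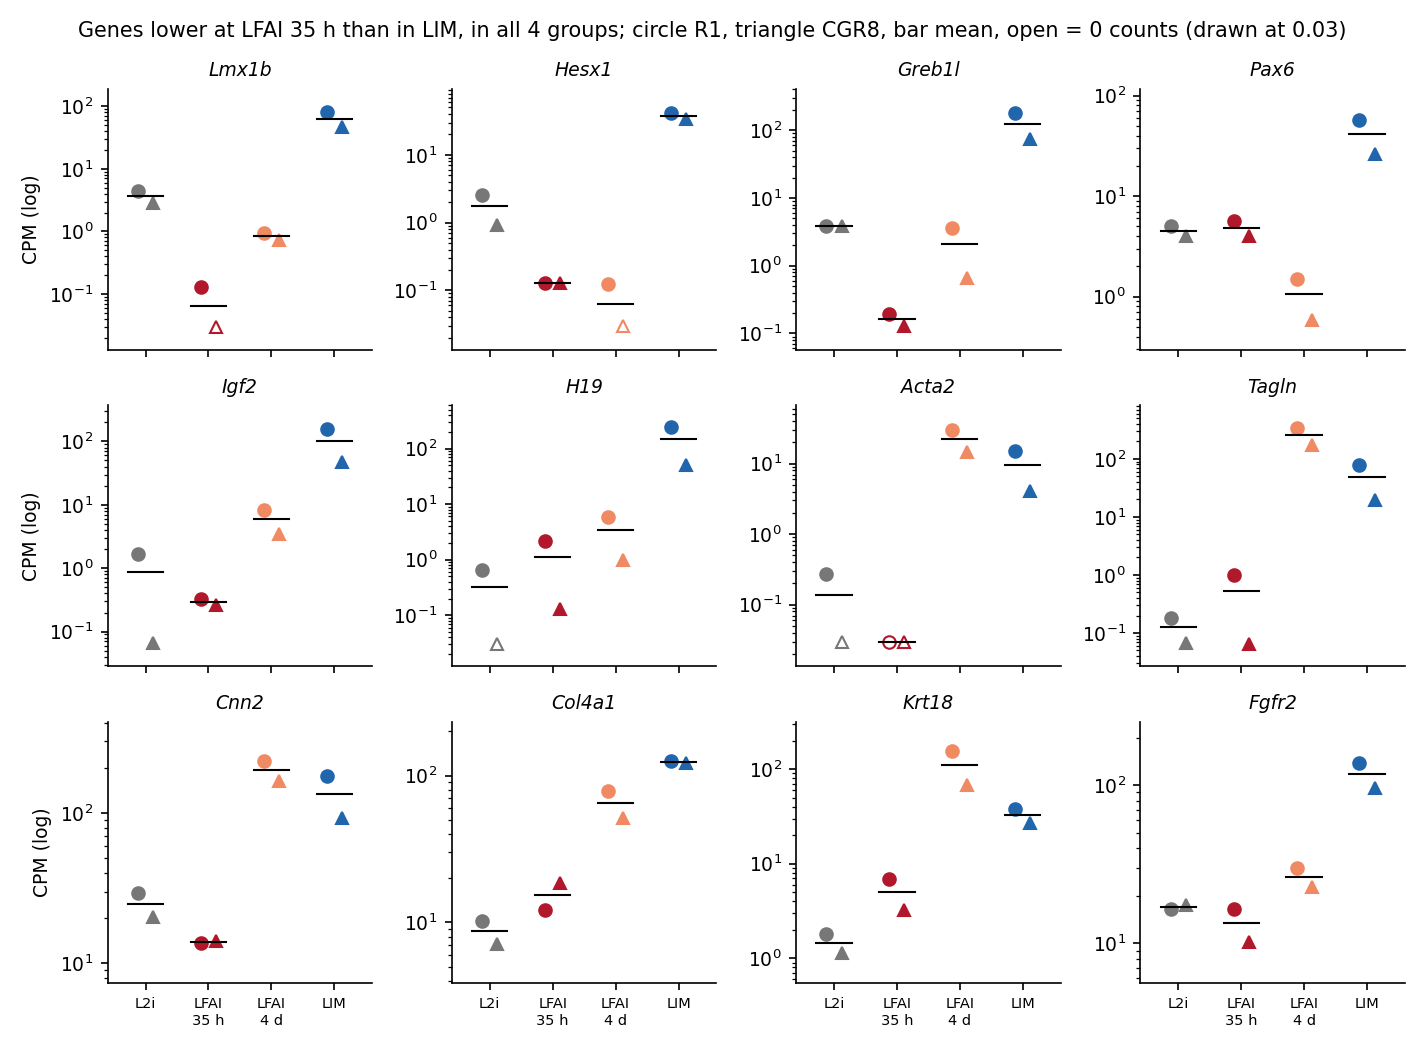
CPM on a log axis of 12 genes lower at LFAI 35 h than in LIM, shown in L2i, LFAI 35 h, LFAI 4 days and LIM. Circles are R1, triangles CGR8, bars the mean and open symbols libraries with 0 counts, drawn at 0.03. Lmx1b, Hesx1, Greb1l and Pax6 were high in LIM alone, while Acta2, Tagln, Cnn2 and Krt18 were also high after 4 days in LFAI.

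Greb1l had 0.196 and 0.13 CPM at LFAI 35 h, against 177 and 73.7 CPM in LIM (716-fold lower, log2 fold -9.48 ± 0.57, adjusted p = 7.78e-05). Cyp26a1, the enzyme that degrades retinoic acid, had no count at 35 h and 16.3 and 3.75 CPM in LIM, at least 101-fold lower (adjusted p = 0.00363). That call was lost without the R1 LIM library (log2 -8.25) and in the DESeq2 test (adjusted p = 0.189). The retinoic acid carrier Crabp2 had 37.7 and 37.1 CPM at LFAI 35 h, against 94.0 and 95.7 CPM in LIM (2.53-fold lower, adjusted p = 0.00257), and of 13 tested genes of retinoic acid handling 3 were lower and none was higher (2 were higher in DESeq2), against 6.41% and 3.18% of all tested genes. Pth1r, the parathyroid hormone receptor, had 0.0652 and 0.13 CPM at LFAI 35 h, against 18.7 and 7.61 CPM in LIM, and Shisal1 0 and 0.13 CPM at LFAI 35 h, against 8.58 and 3.75 CPM in LIM (adjusted p = 0.000673 and 0.00309). Neither had more than 2 counts in a 35 h library, and the ratios of LIM to 35 h were 133 (counting interval 45.3 to 649) and 93.7 (counting interval 25.6 to 779). Lmx1b, Greb1l and Pth1r were also low in L2i, with at most 4.46, 3.92 and 0.322 CPM in turn. For them LIM was the group that stood apart.

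Of 20 tested imprinted genes 8 were lower at LFAI 35 h and none was higher, against 6.41% and 3.18% of all genes, with a median log2 fold of -0.77. The other 12 were not called, and 4 of the 20 had a positive fold. Igf2, a growth factor expressed from the paternal copy, had 0.326 and 0.26 CPM at LFAI 35 h, against 157 and 47.3 CPM in LIM (329-fold lower, log2 fold -8.36 ± 0.49, adjusted p = 7.78e-05). H19, the maternally expressed noncoding RNA that shares its control region, had 2.15 and 0.13 CPM at LFAI 35 h, against 241 and 51.6 CPM in LIM (142-fold lower, log2 fold -7.15 ± 0.35, adjusted p = 3.79e-05). The genes lie 72.6 kb apart on chromosome 7 (chr7:142650766-142666816 and chr7:142575529-142578143). In LIM both were 3-fold or more higher in R1 than in CGR8, yet every LIM library stood more than 20-fold above every 35 h library. Peg10 had 42.3 and 33.7 CPM at LFAI 35 h, against 493 and 199.8 CPM in LIM (8.14-fold lower, adjusted p = 0.0017). Nnat had 4.31 and 0.714 CPM at LFAI 35 h, against 13.9 and 9.51 CPM in LIM (6.24-fold lower, adjusted p = 0.0143) but was lost without the block (log2 -2.22, adjusted p = 0.199). Peg3 had 152 and 112 CPM at LFAI 35 h, against 464 and 263 CPM in LIM (2.73-fold lower, adjusted p = 0.00577), lost without the R1 LIM library (log2 -1.01). Mest had 231 and 168 CPM at LFAI 35 h, against 399 and 306 CPM in LIM (1.77-fold lower, adjusted p = 0.00589), lost without the R1 LFAI 35 h or the CGR8 LIM library (log2 -0.77, -0.73) or without the block (log2 -0.82, adjusted p = 0.127). Dlk1 and Grb10 were 5.90-fold lower and 1.82-fold lower (adjusted p = 0.0239 and 0.0444). Dlk1 was lost without any of the 4 libraries (log2 -2.86 to -2.27), and Grb10 without either 35 h library, R1 in LIM or an L2i library (log2 -0.91 to -0.34) or without the block (log2 -0.92, adjusted p = 0.122). Without the block 5 imprinted genes were lower, and without R1 in LIM also 5.

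Most tested genes of the contractile cytoskeleton were lower at LFAI 35 h. The list holds targets of SRF and YAP, factors that respond to actin and cell tension. Of its 12 tested genes 10 were lower and none was higher, against 6.41% and 3.18% of all tested genes. Their median log2 fold was -2.16. Actg2, Ctgf, Cyr61 and Ankrd1, also on the list, were not tested and are not in this count. In the R1 time course given below, Acta1, Acta2, Cnn1, Tagln and Tpm2 were higher at LFAI day 2 than at LIM day 4. Cnn2, Myl9, Tpm1, Flna and Amotl2 were not. Several of these levels were low, as for Acta2 with 0.155 CPM at LFAI day 2, against 0.0756 CPM at LIM day 4. Acta2, smooth muscle actin, had no count at 35 h and 14.9 and 4.10 CPM in LIM, at least 95.9-fold lower (adjusted p = 0.000733). Acta1, skeletal actin, had 1 count at 35 h and 7.89 and 3.57 CPM in LIM, a ratio of LIM to 35 h of 174 (counting interval 30.9 to 6920.0). Tagln, encoding the actin-binding protein transgelin, had 0.978 and 0.0649 CPM at LFAI 35 h, against 79.4 and 19.2 CPM in LIM (88.7-fold lower, adjusted p = 7.78e-05), and the myosin light chain gene Myl9 had 0.326 and 0.195 CPM at LFAI 35 h, against 19.5 and 12.4 CPM in LIM (59.0-fold lower, adjusted p = 7.78e-05). The calponin gene Cnn2 had 13.6 and 14.2 CPM at LFAI 35 h, against 177 and 92.7 CPM in LIM (9.22-fold lower, log2 fold -3.21 ± 0.22, adjusted p = 0.000101), and Cnn1 was 5.75-fold lower (adjusted p = 0.00157). The tropomyosin gene Tpm1 had 76.7 and 63.0 CPM at LFAI 35 h, against 349 and 157 CPM in LIM and Tpm2 had 13.3 and 14.0 CPM at LFAI 35 h, against 33.4 and 35.0 CPM in LIM (adjusted p = 0.00179 and 0.00487). Flna, filamin A, had 712 and 818 CPM at LFAI 35 h, against 1753 and 1208 CPM in LIM (1.92-fold lower, adjusted p = 0.0386), and Amotl2 was 1.63-fold lower (adjusted p = 0.0268). Both were lost without the block (log2 -0.95, adjusted p = 0.0518 for Flna, log2 -0.74, adjusted p = 0.0857 for Amotl2), Flna also without the R1 LFAI 35 h or the R1 LIM library (log2 -0.75, -0.61) and Amotl2 without the R1 LFAI 35 h or the R1 LIM library (log2 -0.56, -0.43). R1 was higher than CGR8 in LIM for Acta2, Tagln, Cnn2, Tpm1 and Flna. The summed fibroblast, trophoblast and primitive endoderm markers were also higher in LIM, as given above, and their part in this group was not tested. Of 6 tested fibroblast genes 2 were lower and none was higher, against 6.41% and 3.18% of all tested genes. The lower ones had 2.57 and 2.14 CPM for Col1a1 and 1.69 and 0.951 CPM for Col1a2 in LIM. Thy1, Pdgfrb, Fbn1 and Dcn were not called, and Dcn had a positive fold (log2 1.00). Col1a1 was lost without any of the 4 libraries (log2 -3.92 to -3.16), and Col1a2 without the R1 LFAI 35 h or the CGR8 LFAI 35 h or the R1 LIM library (log2 -4.17, -3.27, -3.04).

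Matrix and adhesion genes followed in part. Of 18 tested basement membrane and integrin genes 4 were lower and none was higher (median log2 fold -0.34), against 6.41% and 3.18% of all tested genes. The collagen IV genes Col4a1 and Col4a2, which share a start region on chromosome 8, had 12.1 and 18.6 CPM at LFAI 35 h, against 126 and 123 CPM in LIM for Col4a1 and 2.41 and 4.48 CPM at LFAI 35 h, against 57.8 and 39.5 CPM in LIM for Col4a2 (log2 fold -3.01 ± 0.28 and -3.76 ± 0.36, adjusted p = 0.000484 and 0.000572). The laminin gene Lamb1 had 41.4 and 45.8 CPM at LFAI 35 h, against 185 and 118 CPM in LIM (3.48-fold lower, adjusted p = 0.00385). Sparc was 2.25-fold lower (adjusted p = 0.0274), lost without the R1 LFAI 35 h or the R1 LIM or the CGR8 LIM library (log2 -0.64, -1.04, -1.30). Col4a1, Lamb1 and Sparc are also in the primitive endoderm list, of which 6 of 13 tested members were lower, against the same 6.41%. That count was 2 without R1 at 35 h or R1 in LIM and 4 without CGR8 in LIM, whereas the basement membrane count was 7 without CGR8 at 35 h. Among its defining factors Gata4 had 1.44 and 0.909 CPM at LFAI 35 h, against 7.01 and 5.05 CPM in LIM (adjusted p = 0.0301), lost without any of the 4 libraries (log2 -2.80 to -1.98) or the block (log2 -2.36, adjusted p = 0.102). Dab2 was also called lower, with 0.261 and 0.844 CPM at LFAI 35 h, against 7.20 and 3.92 CPM in LIM (adjusted p = 0.0125). Pdgfra was called lower just inside the threshold, with 0.391 and 0.714 CPM at LFAI 35 h, against 2.19 and 2.675 CPM in LIM (adjusted p = 0.0481). Sox7 had 0.131 and 1.43 CPM at LFAI 35 h, against 0.751 and 0.951 CPM in LIM. Gata6 had 0.261 and 0.0649 CPM at LFAI 35 h, against 0.0626 and 0.178 CPM in LIM, and Sox17 had 0.196 and 0.260 CPM at LFAI 35 h, against 0.0626 and 0.178 CPM in LIM, both too low to be tested. N-cadherin, Cdh2, had 5.48 and 4.03 CPM at LFAI 35 h, against 52.5 and 25.5 CPM in LIM (7.84-fold lower, log2 fold -2.97 ± 0.25, adjusted p = 0.000324), and the E-cadherin repressor Zeb2 had 0.522 and 0.13 CPM at LFAI 35 h, against 19.3 and 7.91 CPM in LIM (40.7-fold lower, adjusted p = 0.000803). E-cadherin itself, Cdh1, had 882 and 638 CPM at LFAI 35 h, against 541 and 630.4 CPM in LIM and was not called (adjusted p = 0.212). The ephrin receptor gene Ephb2 had 7.24 and 5.32 CPM at LFAI 35 h, against 41.4 and 40.2 CPM in LIM (6.50-fold lower, adjusted p = 0.000421).

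Podxl, a sialomucin of the apical surface and of the epiblast lumen, had 103 and 79.0 CPM at LFAI 35 h, against 233 and 274 CPM in LIM (2.80-fold lower, log2 fold -1.48 ± 0.17, adjusted p = 0.00138). In L2i it was at 14.8 and 17.0 CPM, so both states were above the naive level and LIM further. Of 22 tested apical and lumen genes 1 was higher and 3 were lower (median log2 fold -0.17), against 3.18% and 6.41% of all tested genes, and 1 was lower without either LIM library. The tight junction gene Cgn was 2.49-fold lower (adjusted p = 0.0137), Pdzk1 3.03-fold lower (adjusted p = 0.0339) and the polarity gene Crb3 2.15-fold higher (adjusted p = 0.0229). Cgn was lost without the R1 LFAI 35 h or the R1 LIM or the CGR8 LIM library (log2 -1.18, -1.24, -1.38), Pdzk1 without the CGR8 LFAI 35 h or the R1 LIM or the CGR8 LIM library (log2 -1.08, -1.90, -1.29) and Crb3 without the R1 LFAI 35 h or the R1 LIM library (log2 0.86, 0.80). The keratin genes Krt18 and Krt19 had 6.91 and 3.25 CPM at LFAI 35 h, against 37.9 and 26.8 CPM in LIM for Krt18 and 0.261 and 0.909 CPM at LFAI 35 h, against 17.2 and 13.2 CPM in LIM for Krt19 (log2 fold -2.74 ± 0.22 and -4.63 ± 0.68, adjusted p = 0.000267 and 0.00394). They belong to the trophoblast list, in which 5 of 10 tested members were lower, against 6.41% of all tested genes (3 without R1 at 35 h, R1 in LIM or CGR8 in LIM), but are expressed by many epithelia. Of the defining trophoblast factors, Cdx2 was at or near 0 in both groups, with no count at LFAI 35 h, against 0.0626 and 0.0595 CPM in LIM. Elf5 had 0.131 and 0.0649 CPM at LFAI 35 h, against 0.188 and 0.357 CPM in LIM. Gata3 was called lower, with 0.196 and 0.0649 CPM at LFAI 35 h, against 6.64 and 3.39 CPM in LIM (adjusted p = 0.00665). Hand1 was also called lower, with 0.0652 and 0 CPM at LFAI 35 h, against 1.94 and 1.49 CPM in LIM (adjusted p = 0.0248). Tfap2a had 4.04 and 3.83 CPM at LFAI 35 h, against 9.27 and 5.53 CPM in LIM.

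Among metabolic genes the cholesterol list held the most calls. Of 24 tested genes of the cholesterol pathway 11 were lower at LFAI 35 h and none was higher (median log2 fold -0.49), against 6.41% and 3.18% of all tested genes, and 23 of the 24 had a negative fold. Lss, lanosterol synthase, had 117 and 104 CPM at LFAI 35 h, against 239.9 and 253 CPM in LIM (2.23-fold lower, log2 fold -1.16 ± 0.13, adjusted p = 0.00114). Pmvk and Mvd, kinase and decarboxylase of the mevalonate pathway, were 2.01-fold lower and 2.08-fold lower (adjusted p = 0.00422 and 0.00506), and Mvd was lost without the block (log2 -1.01, adjusted p = 0.0697). Hmgcs1, the synthase at the head of the pathway, had 438 and 441 CPM at LFAI 35 h, against 794 and 776 CPM in LIM (1.79-fold lower, adjusted p = 0.011), lost without the R1 LFAI 35 h or the R1 LIM or the CGR8 LIM library (log2 -0.82, -0.80, -0.86). The level in L2i was 79.7 and 86.0 CPM for Lss and 351 and 438 CPM for Hmgcs1, nearer to the 35 h cells than to LIM. The number of lower members was 5, 6, 6 and 5 without R1 at 35 h, CGR8 at 35 h, R1 in LIM and CGR8 in LIM. Of 19 tested genes of the glycolysis list 2 were higher and 2 were lower (median log2 fold -0.14), against 3.18% and 6.41% of all tested genes. None was higher without R1 at 35 h, R1 in LIM or the block, and 5 were lower without R1 in LIM and 1 without the block. The glucose transporter genes Slc2a1 and Slc2a3 had 288 and 387 CPM at LFAI 35 h, against 634 and 1034 CPM in LIM for Slc2a1 and 367 and 785 CPM at LFAI 35 h, against 1309 and 1575 CPM in LIM for Slc2a3 (log2 fold -1.28 ± 0.13 and -1.40 ± 0.20, adjusted p = 0.000673 and 0.00323). Slc2a3 was lost without the block (log2 -1.32, adjusted p = 0.0518). Pdk1, which restrains pyruvate oxidation in mitochondria, had 292 and 269 CPM at LFAI 35 h, against 44.4 and 146 CPM in LIM (3.41-fold higher, adjusted p = 0.0153). Ldhb was 1.71-fold higher (adjusted p = 0.012). Pdk1 was lost without the R1 LFAI 35 h or the R1 LIM library (log2 1.19, 1.17) or the block (log2 1.56, adjusted p = 0.0975), and Ldhb without the R1 LFAI 35 h or the R1 LIM library (log2 0.60, 0.68) or the block (log2 0.75, adjusted p = 0.0717). None of 16 respiration genes was called by edgeR, DESeq2 or limma-voom, and none had an unadjusted p under 0.05. None of 20 lysosome genes was called in the main comparison, with 2 higher and 5 lower at an unadjusted p under 0.05. In other settings 1 was higher in DESeq2, and 1 was higher and 1 lower in limma-voom. Without the filter 2 were lower, and with the 4 libraries and the block 1 was.

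**Figure D5:**
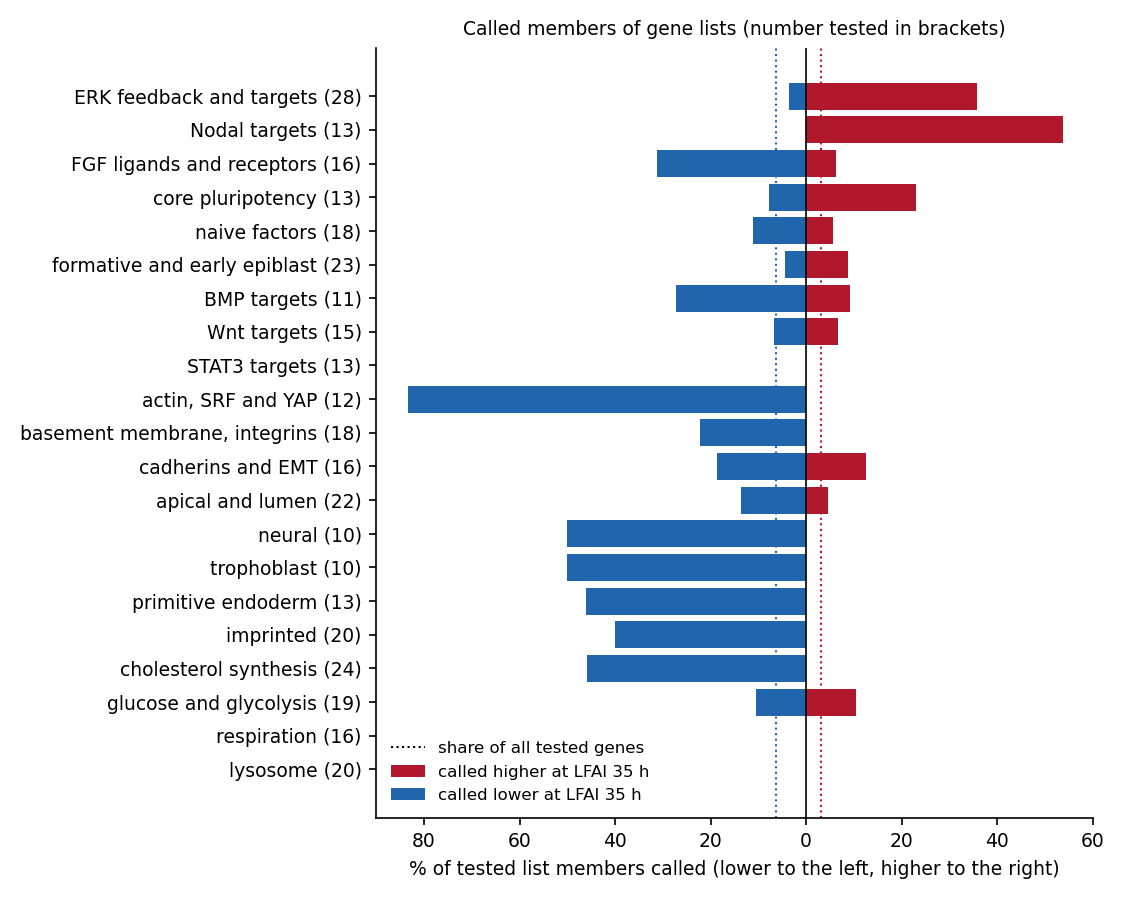
Share of tested members of each gene list that was called lower (left, blue) or higher (right, red) at LFAI 35 h, in percent, with the number tested in brackets and dotted lines at 6.41% lower and 3.18% higher for all tested genes. The ERK and Nodal lists reach to the right, and the actin, neural, trophoblast, primitive endoderm, cholesterol and imprinted lists to the left.

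Other signalling lists had between 0 and 4 called members. Of 11 BMP targets, 3 were lower and Smad7, shared with the Nodal list, was higher, against 6.41% and 3.18% of all tested genes. The inhibitor of differentiation genes Id1 and Id2 had 4.50 and 6.62 CPM at LFAI 35 h, against 19.4 and 22.5 CPM in LIM for Id1 and 1.96 and 3.83 CPM at LFAI 35 h, against 12.7 and 12.0 CPM in LIM for Id2 (adjusted p = 0.00932 and 0.018). Msx2, a homeobox gene, had no count at LFAI 35 h, against 2.07 and 1.25 CPM in LIM (at least 16.9-fold lower, adjusted p = 0.0154), lost without the R1 LFAI 35 h or the R1 LIM or the CGR8 LIM library (log2 -7.32, -7.92, -7.70). Id1 was lost without the R1 LFAI 35 h or the CGR8 LIM library (log2 -1.60, -1.79), and Id2 without the R1 LFAI 35 h or the R1 LIM or the CGR8 LIM library (log2 -1.49, -2.09, -2.05). No BMP target was lower without R1 at 35 h or CGR8 in LIM, and 1 was without R1 in LIM. Of 15 Wnt targets 1 was higher and 1 was lower, against 3.18% and 6.41% of all tested genes, too few calls to describe the list. Notum, an enzyme that inactivates Wnt ligands, was higher with 163 and 166 CPM at LFAI 35 h, against 62.7 and 61.6 CPM in LIM (2.65-fold higher, adjusted p = 0.00119). Tnfrsf19 was lower with 4.24 and 7.73 CPM at LFAI 35 h, against 20.7 and 27.3 CPM in LIM (4.06-fold lower, adjusted p = 0.00129). Axin2, the general Wnt target, had 22.7 and 25.3 CPM at LFAI 35 h, against 15.8 and 17.8 CPM in LIM and was not called (adjusted p = 0.155), while both groups were far below its L2i level of 99.3 and 151 CPM. None of 13 STAT3 targets was called in the main comparison, with 2 higher at an unadjusted p under 0.05. In other settings 2 were higher in DESeq2, 1 in limma-voom, 4 without the filter and 2 with the 4 libraries and the block. Of 14 tested genes of the Notch pathway 4 were lower and none was higher, against 6.41% and 3.18% of all tested genes. The receptor gene Notch2 had 33.9 and 28.8 CPM at LFAI 35 h, against 146 and 74.9 CPM in LIM (3.37-fold lower, adjusted p = 0.0012). The ligand gene Dll3 and the fringe genes Lfng and Mfng, whose products add sugars to Notch receptors, were 2.12-fold lower, 2.58-fold lower and 3.38-fold lower (adjusted p = 0.0458, 0.0421 and 0.0207). Dll3 was lost without the R1 L2i or the CGR8 L2i or the R1 LFAI 35 h or the CGR8 LFAI 35 h or the R1 LIM or the CGR8 LIM library (log2 -1.07, -1.05, -1.35, -0.83, -1.14, -1.02), Lfng without any of the 4 libraries (log2 -1.58 to -1.11) and Mfng without the R1 LFAI 35 h or the R1 LIM or the CGR8 LIM library (log2 -1.54, -1.73, -1.78), and Dll3 and Lfng also without the block (log2 -1.06, adjusted p = 0.0766 for Dll3, log2 -1.43, adjusted p = 0.168 for Lfng). The number of lower Notch genes was 1 without R1 at 35 h, R1 in LIM or CGR8 in LIM, and 2 without CGR8 at 35 h or without the block. Of 16 tested genes of the G1 and Myc list Cdk6 was higher and Ccnd2 was lower. Of 15 tested genes of the stress and serine list Cth was higher and none was lower. Over all tested genes 3.18% were higher and 6.41% lower. The G1 kinase gene Cdk6 had 59.8 and 78.8 CPM at LFAI 35 h, against 19.7 and 11.5 CPM in LIM (4.46-fold higher, adjusted p = 0.00183). Cth, the enzyme that makes cysteine from cystathionine, had 249 and 237 CPM at LFAI 35 h, against 108 and 94.4 CPM in LIM (2.41-fold higher, adjusted p = 0.00137). It went the other way in the R1 time course given below. In the list of the transient state resembling the 2-cell embryo, 2 of 9 tested genes were higher, against 3.18% of all tested genes, with CGR8 at 35 h far above the other libraries, and none was higher without that library or without CGR8 in LIM. Zscan4d had 2.94 and 30.7 CPM at LFAI 35 h, against 1.06 and 3.03 CPM in LIM (adjusted p = 0.0216), a call lost without the CGR8 LFAI 35 h or the CGR8 LIM library (log2 1.90, 1.56) or the block (log2 3.03, adjusted p = 0.188), and the copies of this family share reads.

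The R1 time course, a separate set of cultures, gave the same direction more often than not. Of the 494 higher genes 376 (76.1%) were above LIM day 4 at LFAI day 2, against 49.6% of all tested genes, and of the 995 lower genes 672 (67.5%) were below, against 50% of all. With day 2 of LIM in place of day 4, a comparison added after the values were seen, the shares were 66% against 49.3% of all genes, and 60% against 50.3%. Of the named ERK genes, Spry4 had 85.8 CPM at LFAI day 2, against 3.68 CPM at LIM day 2, and Dusp6 78.3 CPM against 11.8 CPM. Of the named Nodal genes, Smad7 had 70.9 CPM at LFAI day 2, against 30.0 CPM at LIM day 2, and Lefty2 134 CPM against 81.7 CPM. Lefty1 had 116 CPM, against 80.7 CPM at LIM day 2 and 105 CPM at LIM day 4. Pmepa1 was lower at LFAI day 2, with 13.8 CPM, against 19.9 CPM at LIM day 2 and 16.6 CPM at LIM day 4. Nlrc4 had 25.3 CPM at LFAI day 2, against 1.35 CPM at LIM day 2, and Nphs1 had 200.4 CPM, against 21 CPM. Among the genes lower at 35 h, Lmx1b had 0.386 CPM at LFAI day 2, and 14.7, 18.6 and 33.3 CPM at LIM days 1, 2 and 4. Greb1l had 3.32 CPM at LFAI day 2 and 25.7 CPM at LIM day 4. Other genes that were on in the passaged LIM cells were still low after 4 days of LIM. Igf2 had 1.16 CPM at LFAI day 2, against 2.34 CPM at LIM day 4, and Cyp26a1 had 0 CPM, against 0.227 CPM. Some called genes went the other way. Gata3, Hand1, Dab2, Pdgfra and Ccnd2 were left out of the next count. Of the other called genes named here, 7 of 41 higher ones were lower at LFAI day 2 than at LIM day 4, and 26 of 70 lower ones were higher. Peg10 had 368 CPM at LFAI day 2, against 32.0 CPM at LIM day 4, Mest 252 CPM, against 131 CPM, and H19 7.19 CPM, against 1.81 CPM. Krt18 had 11.2 CPM at LFAI day 2, against 2.65 CPM at LIM day 4, and Notum, higher at 35 h, 62.9 CPM, against 99.9 CPM. These are single libraries without a test, and they differ from the LIM cells of the main comparison in coating, sequencing protocol and time in LIM.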

How the data were processed

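Mouse embryonic stem cell RNA was sequenced as stranded polyadenylated libraries, per the labels' protocols. The authors deposited raw counts per gene, 47729 genes in each file, and the submitters' processing notes name HISAT2 2.0.4, HTSeq 0.6.1, DESeq2 1.10.1 and GRCm38/mm10. The strand setting and the annotation release are not given in the sources used here. Names and coordinates come from GENCODE M21, which matched 47310 of the 47729 IDs. The 5 summary rows of each file, 47.7 to 50.5% of its total in the 4 libraries compared, were left out.

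The 8 libraries of both lines were fitted together by edgeR 4.0.16 (R 4.3.3) with group and line as terms, TMM scaling (factors 0.964 to 1.03), its default filter on low counts and the quasi-likelihood test, with 3 residual degrees of freedom. An adjusted p under 0.05 made a call, and the SE of a log2 fold is its size divided by the square root of F. CPM are counts per 1000000 of a library's TMM-scaled gene counts. On simulated counts the same steps were tested. A floor of 3 counts over the group and 95% intervals cover counting error only.

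R1 and CGR8 are the same 2 lines in each group, so the line pairs the libraries by design, and the correlations of their deviations were 0.04 to 0.40. Nothing says that cultures were repeated within a line. The block takes out a steady difference between the 2 lines. The p-values thus rest on how unevenly the lines moved between the groups, over the 8 libraries fitted. The alternatives were DESeq2 size factors, no filter, DESeq2 1.42.0, limma-voom (limma 3.58.1), no line block, the 4 libraries alone, a test against a log2 fold of 1 and each library left out. Named genes were a panel, the 15 largest called changes each way with a mean of at least 5 CPM, and up to 6 members of each list by p, plus members of the ERK, Nodal, naive, formative and apical lists. The members and lists were chosen with earlier results of these data known. Some list members are counted but not reported by name here.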

Additional observations from a re-analysis of the deposited data

Results flagged for a closer look

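The 2 lines moved more than 2-fold in opposite directions for 4 genes of the lists, and with 1 library per line and medium that difference between lines was not tested. The log2 CPM difference, LFAI 35 h minus LIM, of the naive gene Dppa3 was 1.10 in R1 and -1.18 in CGR8. For the tight junction genes it was 2.94 in R1 and -1.44 in CGR8 in Cldn3 and 1.27 in R1 and -1.07 in CGR8 in Ocln. For the fibroblast gene Dcn, at under 1 CPM in all 4 libraries, it was 1.65 in R1 and -1.30 in CGR8.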

How the results depend on the processing

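The counts of 494 higher and 995 lower genes depended on the fit. Without a filter on low counts they were 930 and 1648, and with the DESeq2 test 749 higher. Without the line block (no pairing of the lines) they were 298 and 692, and with only the 4 libraries and no block 188 and 425. A test against a log2 fold of 1 gave 52 and 224, which raised the share of lower calls to 81.2% from 66.8%. Leaving out 1 library at a time gave 150 to 631 higher and 335 to 1035 lower genes. DESeq2 size factors (517 and 951), limma-voom (576 and 1057) and the 4 libraries with the block (595 and 1069) stayed within 1.5 times. The cause of these shifts was not tested, and some settings also differed in the number of libraries or of tested genes. No called gene named here changed sign in any of these settings, but Gata3, Hand1, Dab2, Pdgfra and Ccnd2 were not followed in them. Some genes that were not called did change sign (log2 fold). Without the block these were Dppa3 (0.059), Pou3f1 (0.040) and Tbx3 (0.21), and with the 4 libraries and no block Dppa3 (0.066), Pou3f1 (0.048) and Tbx3 (0.22). Tbx3 was at 0.092 in DESeq2, and Ocln at 0.020 in limma-voom and 0.070 with the 4 libraries and the block. Over the left-out libraries the ranges were -1.19 to 3.18 for Cldn3, -4.77 to 2.28 for Dcn, -0.32 to 0.69 for Dnmt3b and -0.89 to 0.86 for Dppa3. They were -0.12 to 0.63 for Esrrb, -1.64 to 0.22 for Fgf5, -0.95 to 1.19 for Ocln and -0.59 to 0.53 for Otx2, and -0.91 to 0.72 for Pou3f1, -1.36 to 0.84 for Tbx3 and -0.26 to 0.064 for Zfp42. At this depth a gene with no count in a group has a fold that is only a lower bound, and 112 called genes had fewer than 4 counts in their lower group.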

Other observations

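Genes induced by interferon were listed after the values were seen. Of 30 tested, 10 were higher at LFAI 35 h and 1 was lower, against 3.18% and 6.41% of all tested genes. Beside Zbp1 and Irgm1, the transcription factor gene Irf1 had 163 and 150.1 CPM at LFAI 35 h, against 43.7 and 65.4 CPM in LIM (2.88-fold higher, adjusted p = 0.00187), and the immunoproteasome subunit gene Psmb10 had 92.8 and 43.8 CPM at LFAI 35 h, against 7.89 and 10.6 CPM in LIM (7.01-fold higher, adjusted p = 0.00129). Both kept their calls without any 1 library. In L2i they were at 62.7 and 61.7 CPM for Irf1 and 17.4 and 12.1 CPM for Psmb10. The number of higher genes in this list was 4 without R1 at 35 h and 6 without R1 in LIM.

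Transcription factors of anterior and regional patterning were also listed after their values were seen, from genes like those among the largest falls, so their count restates in part what led to the list. Of 18 tested, 11 were lower and 1 was higher, against 6.41% and 3.18% of all tested genes. Irx3, a homeobox gene, had 0.261 and 0 CPM at LFAI 35 h, against 6.38 and 3.39 CPM in LIM (40.0-fold lower, adjusted p = 0.0055), next to Lmx1b, Hesx1, Six3 and Pax6 above. The number of lower genes in this list was 5 without R1 at 35 h and 5 without R1 in LIM. Of 12 tested Wnt ligand genes, another list made after the values were seen, 7 were lower and none was higher, against the same shares, at summed levels of 7.04 and 7.01 CPM at LFAI 35 h, against 34.1 and 18.8 CPM in LIM, and none of these calls was left without R1 at 35 h or without R1 in LIM. With CGR8 in LIM left out 1 was, and without the block 3 were.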
